A study of Mus musculus with 4 samples.

Results

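The 10 genes described here encode the 5 NF-kB subunits (Nfkb1, Nfkb2, Rel, Rela and Relb) and 5 proteins that restrain or steer them (Nfkbia, Nfkbie, Nfkbiz, Bcl3 and Tnfaip3). They were taken by symbol from the gene column of the expression table. All 10 were found, each in 1 row, among 28074 distinct symbols, and all 10 were among the 12612 genes tested, with a mean of at least 1 FPKM. FPKM (fragments per kilobase of transcript, scaled to library size) is the unit the authors named for their values. The samples were spleen cells from 2 leukaemic mice, 4050 and 4182, labelled Dnmt3afl/fl,Flt3ITD/ITD,Mx1Cre. The labels also write Dnmt3a+/- for the same mice, and the genotype was not settled here. Cells of each mouse received vehicle (control, n = 2) or 10 µg/ml R848 (n = 2) for 3 days. R848 (resiquimod) is a small-molecule agonist of the endosomal receptors TLR7 and TLR8. By the Dnmt3afl/fl label, both groups carried the floxed Dnmt3a alleles, the Flt3 internal tandem duplication and Cre under the Mx1 promoter, which itself responds to interferon. The medium of both held SCF at 60 ng/ml, IL3 and IL6 at 20 ng/ml each, and serum at 20%, so control cells were not free of cytokine. Cells had been frozen and given 24 hours to recover before treatment. The labels used here state no age and mention no sorting, so each value is that of a mixed cell population.

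NF-kB is a family of dimeric transcription factors that is held in the cytoplasm by IkB proteins until a receptor such as a Toll-like receptor signals. MyD88, IRAK and TRAF6 then relay the signal to the IkB kinase, which marks IkB alpha for destruction and frees the dimers. Several targets of the dimers are their own inhibitors, such as IkB alpha (Nfkbia) and the ubiquitin editor A20 (Tnfaip3), which makes the response self-limiting. The atypical IkB proteins IkB zeta (Nfkbiz) and Bcl-3 (Bcl3) act in the nucleus on p50 or p52 dimers bound to DNA and can raise or lower transcription of chosen targets. Transcript levels, as measured here, do not show how much of each protein was in the nucleus.

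With R848, Nfkbiz and Bcl3 rose, and none of the other 8 genes passed the test. Nfkbiz went from 7.09 ± 0.409 to 20.3 ± 0.358 FPKM and Bcl3 from 6.85 ± 0.578 to 15.3 ± 1.24 FPKM (SD, n = 2 each). The count of 2 of 10 genes called higher, 20.0% of them, stands beside 1.47% of all 12612 tested genes called higher by limma (adjusted p under 0.05). Of the 10 genes 0 were called lower, beside 0.381% of all tested genes. Without adjustment, limma p was under 0.05 for 3 of the 10, Nfkbia being the third, beside 11.5% of all tested genes. That count was 5 of 10 under quantile normalization and under median log ratio scaling, beside 1524 and 1520 of the 12612 tested genes. With the mouse as a block it was 3 of 10, beside 1944 of all tested genes. The block with quantile normalization gave 5, beside 1977, and the block with median log ratio scaling gave 6, beside 1995. Nfkbiz and Bcl3 also passed when the mouse was fitted as a block, where 3.40% of all tested genes were called higher and 1.90% lower. After quantile normalization 1 of the 10 was called higher, beside 0.603% of all tested genes (0.0951% lower), and after median log ratio scaling 2 were, beside 0.722% (0.119% lower). With the block added to these rescalings 2 of the 10 were called higher each time, beside 2.81% and 3.20% of all tested genes (1.08% and 1.15% lower). The median log2 difference was 0.38 for the 10 genes, 0.08 for the 5 subunits and 0.42 for the 5 inhibitors, beside -0.08 for all tested genes. All differences are of log2(FPKM + 1), R848 minus control, a scale on which low genes appear to change less than they do.

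**Figure D1:**
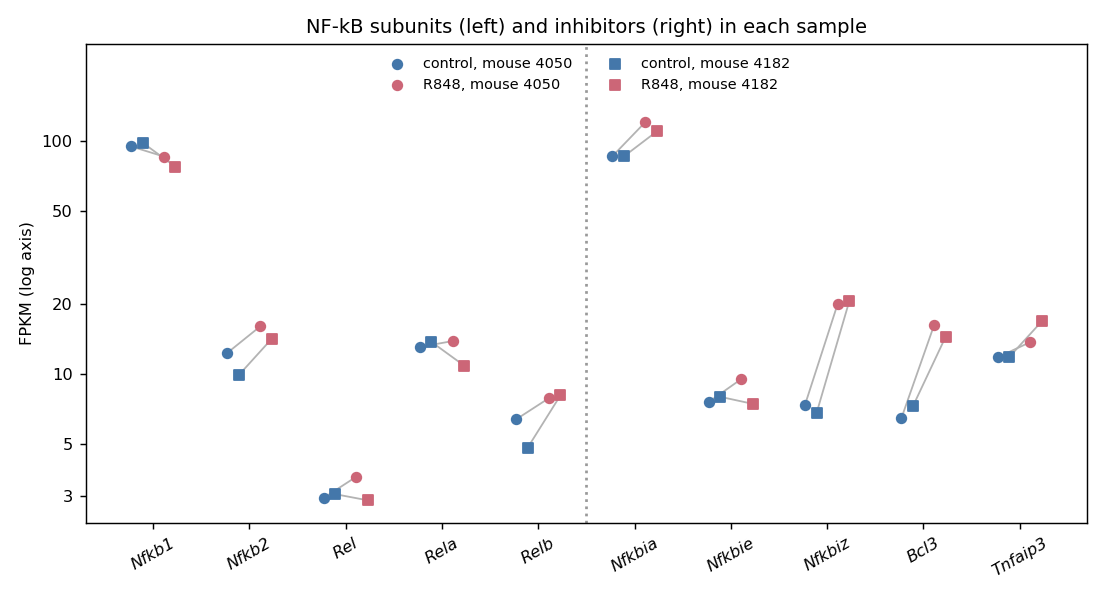
FPKM on a log axis for each member gene in each sample, with control in blue, R848 in red, circles for mouse 4050, squares for mouse 4182 and grey lines joining the samples of 1 mouse. Nfkbiz and Bcl3 show the steepest lines, and the points of Rel, Rela and Nfkbie in R848 lie on both sides of a control point.

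In 7 of the 10 genes the R848 samples did not overlap the control samples, beside 42.2% of all tested genes. In 6 of them (Nfkb2, Relb, Nfkbia, Nfkbiz, Bcl3 and Tnfaip3) both R848 samples lay above both controls, which held for 13.5% of all tested genes. Nfkb1 was the gene with both R848 samples below both controls, as in 28.8% of all tested genes. Rel, Rela and Nfkbie had overlapping groups and opposite signs in the 2 mice. Differences of the same sign in both mice were thus found in 7 of 10 genes, beside 60.9% of all tested genes.

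The promoters of the genes were compared because NF-kB dimers are known to bind kB sites in front of several of their own genes. RefSeq sequences on GRCm38.p6, from 250 bases before to 50 bases after a transcription start, were matched for 7 of the 10 genes, with 10 starts in all. Nfkb1, Relb and Nfkbiz had no entry. The kB consensus, searched on both strands, was in 8 of these 10 windows, from 6 genes, beside 8.46% of all 32851 windows in the table. The windows are not separate: 3 of the 8 belong to Nfkb2, and 2 of those overlap and share a match. A looser form, GGG and CC with any 5 bases between them, covers every consensus match and was in all 10 windows and in 50.8% of all windows. TGANTCA, the AP-1 site, was in 3 of the 10 windows and 7.81% of all windows, and the interferon-response-like repeat of GAAA with any 2 bases between its copies was in 0 of the 10 and 3.44% of all windows. GC content over the 250 upstream bases had a median of 64.6% in the 10 windows and 52.4% in all windows. The stretches below show each consensus match in capitals, 5′ to 3′ on the strand of the gene, with its GRCm38.p6 position.
Bcl3, chr7:19822734-19822763, minus strand, match from base 3 after the start: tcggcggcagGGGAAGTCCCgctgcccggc
Nfkb2, chr19:46304689-46304717, plus strand, match from base -39: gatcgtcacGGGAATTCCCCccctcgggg
Nfkb2, chr19:46304716-46304745, plus strand, match from base -11: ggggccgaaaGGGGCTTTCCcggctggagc
Nfkb2, chr19:46305449-46305478, plus strand, match from base -236 of a start further downstream: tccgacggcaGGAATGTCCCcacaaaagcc
Nfkb2, chr19:46305695-46305724, plus strand, match from base 11 after that start: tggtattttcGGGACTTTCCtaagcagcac
Rel, chr11:23771042-23771070, minus strand, match from base -92: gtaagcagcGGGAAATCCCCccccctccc
Nfkbia, chr12:55492657-55492686, minus strand, match from base -29: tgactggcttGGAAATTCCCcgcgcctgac
Nfkbie, chr17:45555584-45555613, plus strand, match from base -106: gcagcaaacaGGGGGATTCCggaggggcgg
Tnfaip3, chr10:19015516-19015545, minus strand, match from base -125: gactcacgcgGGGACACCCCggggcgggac
Tnfaip3, chr10:19015403-19015432, minus strand, match from base -12: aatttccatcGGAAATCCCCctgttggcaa
Rela had no consensus match in its window, nor did the window at the further downstream start of Tnfaip3. Among the genes with a match, Bcl3 passed the test with R848, while Rel, Nfkb2, Nfkbia, Nfkbie and Tnfaip3 did not. A match describes the letters and does not show that a factor was bound.

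The upstream region of Nfkbia, the most studied of these feedback promoters, is given in full because it overlaps no annotated exon and its gene had the highest level with R848. It spans chr12:55492648-55492897 on the minus strand and carries 1 consensus match, in capitals.
Nfkbia upstream: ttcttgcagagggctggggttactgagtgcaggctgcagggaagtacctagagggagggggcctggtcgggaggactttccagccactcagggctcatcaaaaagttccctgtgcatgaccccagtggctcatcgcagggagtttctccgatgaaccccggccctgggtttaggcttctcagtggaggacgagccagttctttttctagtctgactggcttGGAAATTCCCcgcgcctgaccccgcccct

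Among the subunits, Nfkb1 was by far the most abundant transcript per length. Nfkb1 (GRCm38 chromosome 3, 135584655 to 135691547, minus strand) encodes p105, the precursor of the DNA-binding subunit p50, which has no activation domain of its own. It was at 94.6 and 98.1 FPKM in the controls of mice 4050 and 4182 and at 85.6 and 77.4 FPKM with R848. Both R848 samples were lower than both controls, by a small margin. The log2 difference was -0.24 (SE 0.15, 95% interval -0.60 to 0.12) with limma adjusted p = 0.628.

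Nfkb2 (chromosome 19, 46304320 to 46312385, plus strand) encodes p100, which is cut to p52 in the non-canonical arm of the pathway. It was at 12.3 and 9.89 FPKM in the controls and at 15.97 and 14.1 FPKM with R848 (mice 4050 and 4182). The groups did not overlap, with the R848 samples above, and the difference within each mouse was wider than the gap between the 2 controls. The log2 difference was 0.41 (SE 0.19, 95% interval -0.04 to 0.87) with limma adjusted p = 0.489. Relb (chromosome 7, 19606217 to 19629438, minus strand) encodes the usual partner of p52 and had a difference of like size. Its values were 6.38 and 4.83 FPKM in the controls and 7.87 and 8.09 FPKM with R848, again without overlap. The log2 difference of Relb was 0.45 (SE 0.21, 95% interval -0.04 to 0.95), with limma adjusted p = 0.482.

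Rela and Rel encode the subunits p65 and c-Rel, which carry activation domains and drive most inflammatory targets. Rela (chromosome 19, 5637483 to 5648130, plus strand) was at 13.0 and 13.7 FPKM in the controls and at 13.8 and 10.8 FPKM with R848. The lowest value was the R848 sample of mouse 4182 and the highest that of mouse 4050, so the groups overlapped. Rel (chromosome 11, 23736847 to 23770970, minus strand) was the least abundant member, at 2.94 and 3.05 FPKM in the controls and 3.62 and 2.87 FPKM with R848. The log2 differences were -0.12 (95% interval -0.57 to 0.34) for Rela and 0.08 (95% interval -0.44 to 0.60) for Rel, with limma adjusted p of 0.885 and 0.933. Their intervals do not reach a log2 change of 1 in either direction.

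Nfkbiz rose most of the 10 genes. It lies on GRCm38 chromosome 16 (55811375 to 55838899, minus strand) and encodes IkB zeta, a nuclear protein that is induced by Toll-like receptor signals and needed for a subset of late inflammatory genes. Its values were 7.38 and 6.80 FPKM in the controls and 20.0 and 20.5 FPKM with R848 (mice 4050 and 4182). The samples of each group lay close together and far from the other group, with a linear ratio of 2.71 in mouse 4050 and 3.02 in mouse 4182. The log2 difference was 1.40 (SE 0.18, 95% interval 0.98 to 1.81) with limma adjusted p = 0.0131. By size of its log2 difference it stood at place 204 from the top of 12612 tested genes. The call ended when either R848 sample was left out (limma adjusted p = 0.0909 without that of mouse 4050 and 0.131 without that of mouse 4182) and with no filter on low values (0.157), while the difference was 1.34 or more under every alternative run.

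Bcl3 was the other gene that rose. It lies on chromosome 7 (19808462 to 19822770, minus strand) and encodes a nuclear IkB protein that binds p50 and p52 homodimers. It was at 6.44 and 7.26 FPKM in the controls and at 16.2 and 14.4 FPKM with R848. Both R848 samples lay well above both controls, with linear ratios of 2.51 in mouse 4050 and 1.99 in mouse 4182. The log2 difference was 1.05 (SE 0.19, 95% interval 0.61 to 1.49) with limma adjusted p = 0.0410, which put Bcl3 at place 315 from the top. The call was close to the threshold. It ended without any 1 of the 4 samples (limma adjusted p from 0.0666 to 0.233), with no filter (0.292), with quantile normalization (0.0537) and with no trend in the variance prior (0.0527), at differences between 0.98 and 1.13. Gm16174 and Gm16175 are annotated on the opposite strand within Bcl3, at 5.73 and 12.5 FPKM (Gm16174) and 0.336 and 1.15 FPKM (Gm16175) in the controls and at 8.47 and 13.3 and at 1.83 and 0.909 FPKM with R848. The kit was stranded per the labels, but use of strand in the authors' quantification is not stated there, and without it reads of overlapping genes cannot be told apart. Gm16174 had a log2 difference of 0.29 and Gm16175 of 0.46 (limma adjusted p = 0.825 and 0.685).

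**Figure D2:**
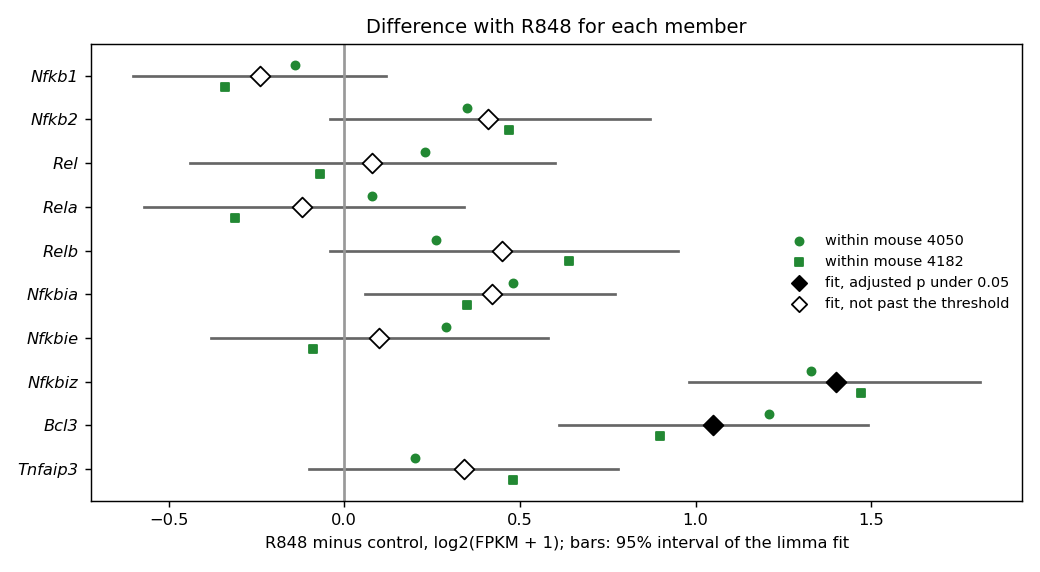
Log2 difference of each member gene, R848 minus control, with diamonds for the limma fit, bars for its 95% interval and green points for the difference within each mouse. The filled diamonds, Nfkbiz at 1.40 and Bcl3 at 1.05, passed the threshold, and the intervals of Nfkb1, Nfkb2, Rel, Rela, Relb, Nfkbie and Tnfaip3 cross 0.

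The cytoplasmic inhibitors moved less. Nfkbia (chromosome 12, 55489410 to 55492647, minus strand) encodes IkB alpha, which retrieves dimers of p65 from the nucleus. It was at 85.9 and 85.7 FPKM in the controls and at 120.1 and 109.6 FPKM with R848. The controls were nearly equal and both R848 samples lay above them, at linear ratios of 1.40 and 1.28. The log2 difference was 0.42 (SE 0.15, 95% interval 0.06 to 0.77) with an unadjusted p of 0.0272 and an adjusted p = 0.328 by limma, so it did not pass over all genes. Its adjusted p lay between 0.115 and 0.770 under the alternatives run. Nfkbie (chromosome 17, 45555703 to 45563169, plus strand) encodes IkB epsilon, a slower inhibitor with a preference for c-Rel and p65. Its values were 7.58 and 7.97 FPKM in the controls and 9.52 and 7.43 FPKM with R848, so the highest and the lowest sample were both R848 samples. The log2 difference of Nfkbie was 0.10 (95% interval -0.38 to 0.58), with limma adjusted p = 0.905.

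Tnfaip3 (chromosome 10, 19000910 to 19015657, minus strand) encodes A20, which removes or edits ubiquitin chains upstream of the IkB kinase. It was at 11.8 FPKM in both controls and at 13.7 and 16.8 FPKM with R848 (mice 4050 and 4182). Both R848 samples lay above the controls, and the gap between the 2 R848 samples was wider than the gap from the lower of them to the controls. The log2 difference was 0.34 (SE 0.19, 95% interval -0.10 to 0.78) with limma adjusted p = 0.568.

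The order of the levels changed between the groups. In control it ran from Nfkb1 (96.3 FPKM) and Nfkbia (85.8) through Rela (13.4), Tnfaip3 (11.8), Nfkb2 (11.1), Nfkbie (7.78), Nfkbiz (7.09), Bcl3 (6.85) and Relb (5.61) to Rel (2.99). Tnfaip3 and Nfkb2 overlapped there, as did Nfkbiz and Bcl3. With R848 the order was Nfkbia (114.9 FPKM), Nfkb1 (81.5), Nfkbiz (20.3), Bcl3 and Tnfaip3 (15.3 each), Nfkb2 (15.0), Rela (12.3), Nfkbie (8.48), Relb (7.98) and Rel (3.25). Tnfaip3 overlapped there with Bcl3 before it and Nfkb2 after it, as did Nfkbie with Relb. Nfkbiz thus went from the seventh place to the third, and Nfkbia and Nfkb1 changed places. The differences of Nfkbia and Nfkb1 did not pass the test (limma adjusted p = 0.328 and 0.628).

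Summed over the 5 subunits, the level was 129.2 and 129.6 FPKM in the controls and 126.9 and 113.4 FPKM with R848. The 5 inhibitors summed to 119.0 and 119.6 FPKM in the controls and 179.5 and 168.9 FPKM with R848. Counted among them are Nfkbiz and Bcl3, which can raise or lower transcription. Most of the sum was Nfkbia, which did not pass the test (limma adjusted p = 0.328). The ratio of inhibitor to subunit FPKM was 0.922 ± 0.00116 for controls and 1.45 ± 0.0529 for R848 samples (SD, n = 2, exact permutation p = 0.333, two-sided, the smallest that 2 samples against 2 can give). The ratio of Nfkbia to Nfkb1 was 0.908 and 0.874 in the controls and 1.40 and 1.42 with R848. Nfkbia made up 72.1% and 71.7% of the inhibitor sum in the controls and 66.9% and 64.9% with R848, while Nfkbiz went from 6.20% and 5.69% to 11.2% and 12.2%. The ratio of Nfkbiz to Nfkb1 was 0.0780 and 0.0693 in the controls and 0.234 and 0.265 with R848. That of Bcl3 to Nfkb1 was 0.0681 and 0.0740 and then 0.189 and 0.186. Among the subunits, Nfkb1 took 73.2% and 75.7% of the sum in the controls and 67.5% and 68.3% with R848, and Nfkb2 took 9.52% and 7.63% and then 12.6% and 12.5%. These ratios are within a sample, so a scaling that multiplies every FPKM of a sample by 1 factor leaves them as they are.

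**Figure D3:**
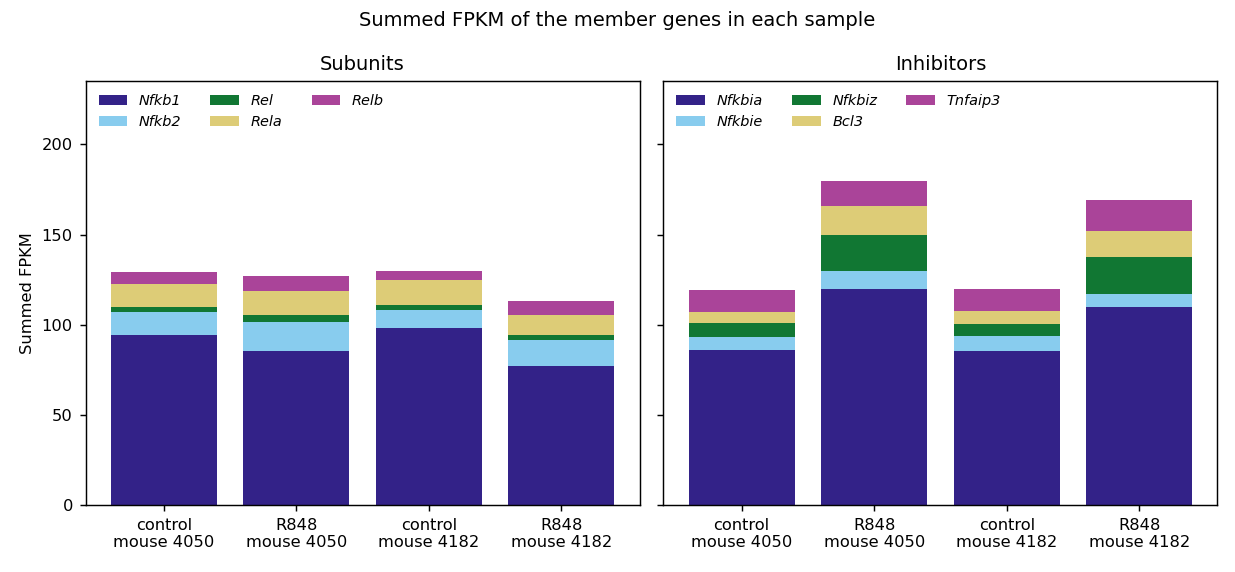
Stacked FPKM of the 5 subunits (left) and the 5 inhibitors (right) in each of the 4 samples, with bars starting at 0. The inhibitor bars are taller in both R848 samples (179.5 and 168.9) than in the controls (119.0 and 119.6), and Nfkbia and Nfkb1 fill most of their bars.

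The genes around the members were described through 5 lists. Tlr7 and Tlr8 had log2 differences of 0.33 and 0.64, and Myd88, their adaptor, of -0.04 (limma adjusted p = 0.707, 0.522 and 0.966). Through which receptor R848 acted in these mouse cells was not tested. None of 19 kinases and adaptors upstream of the subunits passed (0 by limma), with a median log2 difference of -0.04. Of the 19, 2 had an unadjusted limma p under 0.05, beside 11.5% of all tested genes. Ikbke, which encodes an IkB kinase relative best known from interferon induction, was at 66.7 and 67.3 FPKM in the controls and 123.6 and 103.1 FPKM with R848. Its log2 difference was 0.74 (SE 0.16, limma adjusted p = 0.0876), and with the mouse as a block it passed (limma adjusted p = 0.0124). Map3k14, the kinase of the non-canonical arm, was at 7.80 and 6.55 FPKM in the controls and 4.54 and 3.55 FPKM with R848, with a difference of -0.70 on the log2 scale (adjusted p = 0.238, limma). Chuk, Ikbkb and Ikbkg, the subunits of the IkB kinase itself, had differences of 0.27, -0.18 and -0.19 (limma adjusted p = 0.604, 0.766 and 0.739).

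Among 25 other inhibitors and ubiquitin editors, Irak3 and Trafd1 rose and 0 fell, with a median of 0.10. Of all tested genes 1.47% were called higher and 0.381% lower. Irak3 encodes IRAK-M, a kinase-dead relative that damps Toll-like receptor signalling in myeloid cells. It went from 28.2 and 25.5 FPKM in the controls to 64.5 and 52.9 FPKM with R848, which is 1.10 on the log2 scale (SE 0.18, adjusted p = 0.0283 by limma). Trafd1, which encodes a TRAF-type zinc finger protein known as a brake on the same pathway, went from 42.4 and 50.7 to 90.1 and 104.7 FPKM, which is 1.05 on the log2 scale (SE 0.17, adjusted p = 0.0317 by limma). The Irak3 call ended without the control of mouse 4182 (limma adjusted p = 0.0710) and without either R848 sample (0.160 for mouse 4050 and 0.117 for mouse 4182), with no filter (0.223) and with no trend in the prior (0.0549). That of Trafd1 ended without the control of mouse 4050 (0.0673), without either R848 sample (0.111 and 0.237), under both rescalings (0.101 and 0.0735), with no filter (0.233) and with no trend (0.0653). Nfkbib and Nfkbid, the remaining classical and atypical IkB genes of the list, had differences of 0.28 and 0.22 (limma adjusted p = 0.615 and 0.793).

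Of 16 tested genes of the non-canonical arm, 0 passed by limma, with or without the mouse as a block. Of the same 16, 5 had an unadjusted limma p under 0.05, beside 11.5% of all tested genes. Their median was 0.06. Birc3, an ubiquitin ligase that keeps Map3k14 low, was at 43.5 and 50.9 FPKM in the controls and 70.2 FPKM in both R848 samples. Its log2 difference was 0.57 (limma adjusted p = 0.196). Cd40, a receptor that starts this arm, was at 2.69 and 3.25 FPKM and then 4.81 and 6.95 FPKM, with a difference of 0.78 on the log2 scale (adjusted p = 0.235, limma). Both genes lay higher in both R848 samples than in both controls.

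Target genes of NF-kB outside the 10 genes were the next list. It was chosen with earlier results of these data known, so its counts describe the list and do not test it. Of 44 tested, 13 rose and 1 fell by limma, beside 1.47% of all tested genes called higher and 0.381% lower. Their median was 0.54 (0.42 in mouse 4050 and 0.67 in mouse 4182). Fitting the mouse as a block gave 19 higher and 2 lower, beside 3.40% and 1.90% of all tested genes. Saa3, an acute phase protein made by macrophages, went from 104.2 and 125.4 FPKM to 3581 and 2270 FPKM, and Marco, a scavenger receptor, from 1.32 and 0.125 to 102.7 and 86.5 FPKM. Slc7a2, an arginine transporter, fell from 17.3 and 7.29 to 1.21 and 1.02 FPKM, or by -2.54 on the log2 scale (SE 0.36, adjusted p = 0.0201 by limma), and this call ended with no filter (0.297), under both rescalings (0.0860 and 0.0713) and without either R848 sample (0.145 and 0.216). The other 11 that rose, named after their values were seen, were Il1b, Ccl5, Cxcl2, Cxcl3, Cxcl16, Vcam1, Nos2, Acod1 (Irg1 in the table), Sod2, Tnfaip2 and Irf1. Of these 14 genes, 8 were also called under quantile normalization, 9 under median log ratio scaling and 0 with no filter, and 7 and 5 of the same 14 without the R848 sample of mouse 4050 or 4182. Irf1, Acod1, Marco, Nos2 and Saa3 were called in each of these fits but the one with no filter. Several genes of this list are also known targets of interferon, such as Irf1 and Nos2. Tnf, the textbook early target, was at 16.6 and 10.8 FPKM in the controls and 20.3 and 16.3 FPKM with R848, with overlapping groups and a difference of 0.41 on the log2 scale (adjusted p = 0.593, limma).

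**Figure D4:**
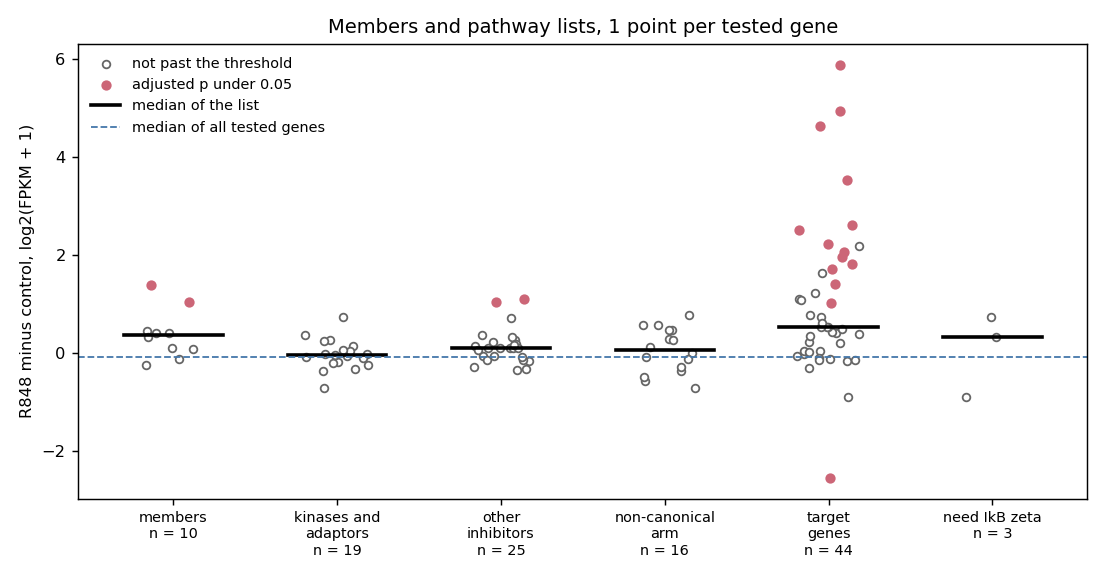
Log2 difference, R848 minus control, of each tested gene in the member set and the 5 pathway lists, with filled points for limma adjusted p under 0.05, black lines for list medians and a dashed line for the median of all tested genes (-0.08). Filled points are 2 among the members, 2 among other inhibitors and 14 among target genes, and the list medians run from -0.04 for kinases and adaptors to 0.54 for targets.

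Genes known from knockout work to need IkB zeta were listed because Nfkbiz rose. Of the 7 listed, 3 had a mean of at least 1 FPKM and were tested, and none of these passed (0 by limma). Of the 3, 2 had an unadjusted limma p under 0.05, beside 11.5% of all tested genes. Lcn2, an iron-siderophore trap, was at 1143 and 861.2 FPKM in the controls and at 1995 and 1382 FPKM with R848, differing by 0.74 on the log2 scale (limma adjusted p = 0.239, and 0.0146 with the mouse as a block). Il6 was at 38.0 and 35.6 FPKM in the controls and 25.9 and 14.2 FPKM with R848, differing by -0.90 on the log2 scale (limma adjusted p = 0.221, and 0.0187 with the block), in a culture to which IL6 was added. With the block these 2 genes of the list thus passed in opposite directions. Ebi3 had a difference of 0.33 (limma adjusted p = 0.578).

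The genes whose pattern over the 4 samples was most like that of Nfkbiz, by Euclidean distance of centred log2 values, were Adap2 (0.043), Trim30a (0.063) and Sod2 (0.092). Siglec1 (0.103) and Clec4b2 (0.139) were among the 3 nearest to Bcl3. With 4 samples such nearness mainly says that a gene had a difference of the same size.

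Markers of the labelled cell type were present and some markers of other cells moved with treatment. All 15 myeloid markers had at least 1 FPKM in every sample, with summed levels of 69167 to 86317 FPKM in control and 60064 to 98143 with R848, and 0 of the 15 passed by limma. With the mouse as a block 3 of the 15 were called higher, Csf1r, Cd14 and Ly6c2 (limma adjusted p = 0.0215, 0.00700 and 0.0398). The 8 plasma cell markers summed to 30.3 and 32.2 FPKM in control and to 633.3 and 747.2 FPKM with R848, with 4 called higher. Most of the R848 sums was Igkc, at 601.4 FPKM in mouse 4050 and 507.0 in mouse 4182. Irf4 alone of the list had a negative log2 difference (-0.71, limma adjusted p = 0.239). The 8 B cell markers summed to 15.0 and 17.2 and then to 44.1 and 44.6 FPKM, with 3 called higher, none of either list being at 0 in every sample. The 7 macrophage markers summed to 260.4 and 316.5 FPKM in control and 522.4 and 652.3 FPKM with R848, with 3 called higher and 1 lower. The 8 dendritic cell markers summed to 13.0 and 31.1 FPKM in control and 9.07 and 15.9 FPKM with R848. Of these, Itgax went from 15.3 to 1.31 FPKM in mouse 4050 and from 3.02 to 0.584 in mouse 4182. It was called lower only with the block (limma adjusted p = 0.00132, and 0.192 without it). The other tested genes of the list, Zbtb46, Batf3 and Ccr7, had log2 differences of -0.19, 0.11 and 0.06. The 5 megakaryocyte markers summed to 86.4 and 101.3 FPKM in control and 214.0 and 450.7 FPKM with R848. Pf4 was called higher (log2 difference 2.02, limma adjusted p = 0.0215). Ppbp differed by 2.10 (limma adjusted p = 0.214, and 0.00146 with the block), while Itga2b, Gp1ba and Gp9 differed by -0.12, -0.06 and -0.40. The 9 T cell markers summed to 48.3 and 84.1 and then 97.8 and 111.8 FPKM, with 5 tested and Cd3g called higher (limma adjusted p = 0.0327). Most of each sum was Thy1, at 39.5 and 75.8 and then 84.8 and 94.9 FPKM (limma adjusted p = 0.406). The other tested genes of the list, Cd3d, Cd8a and Lck, had log2 differences of 0.01, 0.38 and 0.39. The 7 progenitor markers summed to 98.1 and 136.3 and then 108.0 and 263.9 FPKM, with 6 tested and 0 called by limma. Ly6a made up 31.7 and 187.7 FPKM of the R848 sums. It alone of the list lay higher in both R848 samples than in both controls. Kit, Cd34, Meis1 and the untested Flt3 lay lower in both R848 samples than in both controls, while Gata2 and Hoxa9 had overlapping groups. With the block Ly6a was called higher (log2 difference 3.14) and Cd34 (-1.11) and Meis1 (-1.03) lower. In the NK cell, erythroid and stromal lists 0 genes were called in either fit, but only 3, 0 and 1 of their genes were tested. The erythroid list could thus give no call. B cells and macrophages also express NF-kB subunits and inhibitors. The part of any of these cells in the rises of Nfkbiz and Bcl3 was not tested, and in mixed samples fewer cells of a type and less RNA per cell cannot be told apart.

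**Figure D5:**
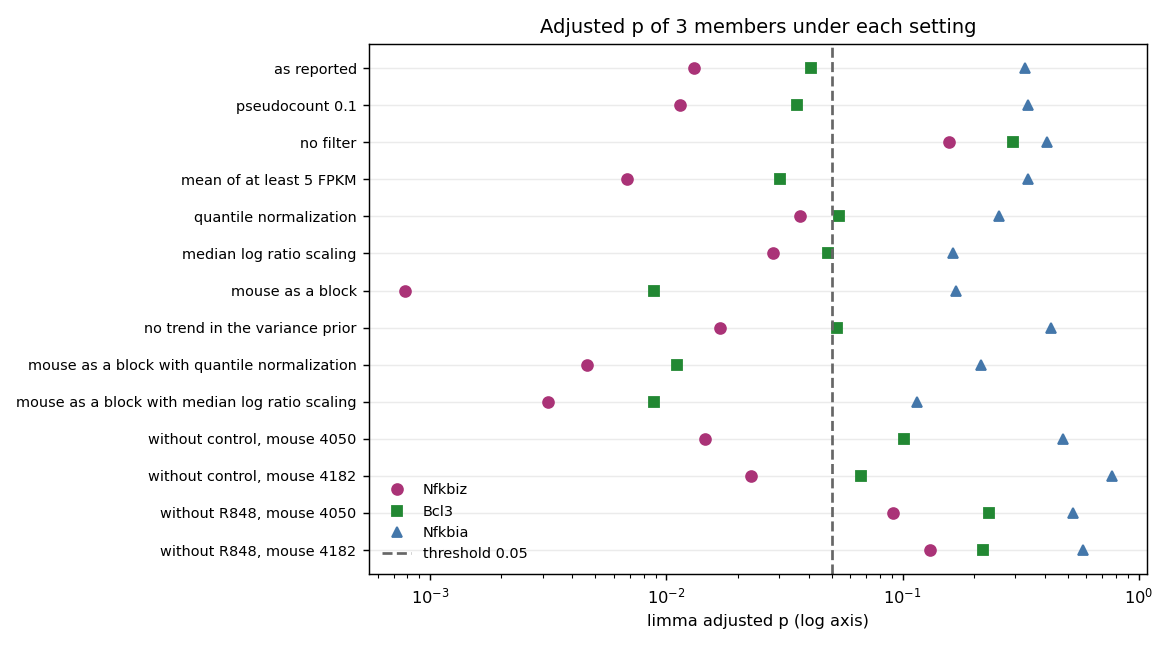
Adjusted p of the limma test on a log axis for Nfkbiz (circles), Bcl3 (squares) and Nfkbia (triangles) under each setting, with the threshold of 0.05 as a dashed line. Nfkbiz lies left of the line in all settings but no filter (0.157) and the 2 that leave out an R848 sample (0.0909 and 0.131), Bcl3 lies on either side of it, and Nfkbia lies right of it throughout.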

How the data were processed

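RNA sequencing (paired reads of 150 nucleotides, RNA integrity above 8.0, per the labels' protocols) gave 4 samples, control and R848 from each of 2 mice. The authors deposited log2 values, named log2 FPKM in their table. Per the submitters' processing notes, kallisto and mm10 were used. The annotation and the tool versions are not stated in those notes. In the table, the lowest value was 0 and the linear values, taken as log2(FPKM + 1), summed to between 950530 and 962001 per sample. These sums were close to each other. FPKM is the authors' name for the unit, and it was not checked here. No counts were used, and depth per value is therefore unknown.

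Of 28192 rows, 27 with spreadsheet dates as names and 91 repeats were dropped. The 12612 genes averaging 1 FPKM or more were fitted with limma 3.58.1 (R 4.3.3, trended prior, 5.27 prior and 2 residual degrees of freedom). Tests were two-sided and p-values were adjusted by Benjamini-Hochberg over all 12612 genes, at 0.05. Python 3.11.15 and matplotlib 3.10.9 were used for the tables and figures. The main fit had no block. The same mouse number means the same animal, so numbers pair the samples. The deviations of paired samples correlated at 0.289.

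The 10 genes and all lists were chosen with earlier results of these data known. Genes named are the members, Tlr7, Tlr8, Myd88, and per list the 2 called higher and 2 called lower with the smallest adjusted p (or the 2 smallest p), plus the 3 nearest in pattern to the 2 members with the smallest p. A gene that this rule names is not reported here. Other names were added after seeing values. All 110 pathway genes were found, 2 through an older symbol. Of 87 marker genes 1 was unmatched. Alternatives were another pseudocount (0.1), no filter (genes at 0 in every sample left out), a minimum of 5 FPKM, the mouse as a block, median log ratio scaling, quantile normalization, no trend in the prior and leaving out each sample. The block with either rescaling was added after seeing the data. Tested on simulated data for R848 against control over 12612 genes, limma called 65.7% of the 67 genes given a log2 change of 1, all 67 given 2 and all 66 given 3, with 25 false calls among 202. Coordinates came from GENCODE M21 on GRCm38, and promoters from RefSeq on GRCm38.p6.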

Additional observations from a re-analysis of the deposited data

How the results depend on the processing

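The 10 log2 differences kept their sign under every alternative run, except those of Rel and Nfkbie without the R848 sample of mouse 4050 (-0.05 and -0.06, beside 0.21 and 0.26 without that of mouse 4182) and of Rela without the R848 sample of mouse 4182 (0.05, beside -0.28 without that of mouse 4050). Rel was not tested at a minimum of 5 FPKM. No member beyond Nfkbiz and Bcl3 passed under any alternative. With no filter the difference of Nfkbiz (1.40) and of Bcl3 (1.05) no longer passed, nor did that of Bcl3 with quantile normalization (1.12) or without the trend in the variance prior (1.05). Leaving out 1 sample gave 1.34 to 1.45 for Nfkbiz and 0.98 to 1.13 for Bcl3. Members called higher thus numbered 0 with no filter, 1 with quantile normalization, 1 with no trend and 0 to 1 with a sample left out. In the pairing by mouse as a block both members stayed called (adjusted p = 7.8e-04 and 0.00883 by limma).

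Over all genes, calls numbered 0 higher and 0 lower with no filter (limma p under 0.05 before adjustment for 1882 genes), 76 and 12 with quantile normalization, 91 and 15 with median log ratio scaling and 429 and 240 with the block. They were 354 and 136 with the block and quantile normalization, 404 and 145 with the block and median log ratio scaling, and 46 to 259 and 10 to 136 with a sample left out. Kinases and adaptors had 1 call with the block, with or without rescaling. Other inhibitors had 0 calls with no filter or no trend, 1 with either rescaling and 0 to 1 with a sample left out. Targets had 0 calls with no filter, 8 with quantile normalization, 9 with median log ratio scaling and 5 to 17 with a sample left out, and genes that need IkB zeta had 2 with the block, with or without rescaling, and 0 to 1 with a sample left out. Rescaling moved the median of all tested genes from -0.08 to -0.04 (quantile) or to 0.00 (median log ratio). With no filter 21709 genes were tested, and 2 samples a group leave few degrees of freedom per gene. Otherwise the cause of a changed call was not tested.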
